A study of Mus musculus with 4 samples.

Results

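The genes examined encode regulatory subunits of protein phosphatase 2A (PP2A): Ppp2r2a and Ppp2r2d of the B55 family, Ppp2r5a, Ppp2r5b, Ppp2r5c, Ppp2r5d and Ppp2r5e of the B56 family, and the striatins Strn, Strn3 and Strn4. They were taken by gene name from a table of 52636 mouse genes, and each of the 10 names was found once. Bulk RNA of Th17 cells (interleukin 17 producers among helper T cells) was sequenced in 2 PP2A WT and 2 PP2A cKO libraries. Both groups came from C57BL/6 naive T cells, mixed 1 to 3 with irradiated antigen presenting cells and polarized for 2 days. CD3 and CD28 antibodies were used at 2 µg/ml, TGF-β1 at 2 ng/ml, IL-6 at 20 ng/ml, and blocking antibodies for IL-4 and for IFN-γ at 10 µg/ml. A final 4 h with 50 ng/ml PMA plus 500 ng/ml ionomycin preceded collection. The labels do not name the PP2A gene that was targeted, the Cre driver, the age of the mice, or how many mice stand behind a library, and each p-value therefore reflects only how these libraries vary, which may be technical. The comparison addresses whether loss of PP2A, which the series title calls essential for Th17 differentiation, went with a change in the regulatory subunits.

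PP2A is a serine/threonine phosphatase made of a catalytic subunit, a scaffold, and a regulatory B subunit that chooses the substrate. B55 subunits act on cyclin-dependent kinase substrates at mitotic exit and are inhibited by the phosphorylated proteins ENSA and ARPP19, which the kinase MASTL modifies. B56 subunits bind a short docking motif in partners such as the checkpoint protein BubR1, and they also bind the cohesin protector shugoshin. Striatins hold PP2A in the STRIPAK assembly with kinases of the germinal centre family and the adaptor MOB4.

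The members of a family encode closely related proteins from different DNA. Translated from GENCODE M21 coding sequences (GRCm38), the B55 pair was 89.9% identical over 447 aligned residues. The B56 proteins were 64.7% to 79.8% identical in pairs, with Ppp2r5c and Ppp2r5d the closest, and the striatins 55.5% to 66.0%. To show how far the messages differ where the proteins do not, the coding DNA of the longest peptide that all 5 B56 genes share, 19 residues, is given 5′ to 3′ with G and C in capitals.
Ppp2r5a: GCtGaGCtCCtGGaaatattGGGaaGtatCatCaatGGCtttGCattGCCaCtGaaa
Ppp2r5b: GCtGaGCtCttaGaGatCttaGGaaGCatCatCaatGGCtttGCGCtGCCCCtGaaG
Ppp2r5c: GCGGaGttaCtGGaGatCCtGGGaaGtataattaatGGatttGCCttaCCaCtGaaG
Ppp2r5d: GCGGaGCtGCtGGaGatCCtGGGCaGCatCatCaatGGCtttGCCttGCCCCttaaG
Ppp2r5e: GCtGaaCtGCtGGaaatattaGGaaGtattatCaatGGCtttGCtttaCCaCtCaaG
The peptide starts at residue 247 in Ppp2r5a, 253 in Ppp2r5b, 222 in Ppp2r5c, 291 in Ppp2r5d and 239 in Ppp2r5e. G and C made up 33 of the 57 bases in Ppp2r5d and 22 in Ppp2r5e, and the genes differed from one another at 8 to 15 positions.

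The same view of the striatins, whose longest shared peptide has 24 residues, gave the widest range of base composition.
Strn: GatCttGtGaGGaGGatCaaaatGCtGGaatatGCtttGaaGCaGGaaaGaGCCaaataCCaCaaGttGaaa
Strn3: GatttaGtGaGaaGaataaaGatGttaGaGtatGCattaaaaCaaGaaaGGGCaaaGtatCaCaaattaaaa
Strn4: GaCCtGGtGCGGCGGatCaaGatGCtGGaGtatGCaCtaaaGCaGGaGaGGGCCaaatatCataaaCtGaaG
G and C made up 29 of 72 bases in Strn, 20 in Strn3 and 36 in Strn4. In the 47-residue peptide shared by Ppp2r2a and Ppp2r2d, G and C made up 61 of 141 bases in each gene, and 30 positions differed. Over the transcripts of the 10 genes, no window of 50 bases was shared between a pair of them. Windows shared with genes outside the families made up 20.6% for Ppp2r5a and 6.07% for Ppp2r2a, and at most 3.05% for the others.

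The libraries held 18517487 to 20387948 gene-assigned reads, recovered from deposited FPKM values (fragments scaled by gene length and library size). The library size that the FPKM imply differed from the summed reads. It was 19567961 against 19347055 and 19105296 against 18517487 in WT. In cKO it was 20317062 against 20387948 and 19393050 against 19521977. How that size was set cannot be told from the deposited values. The 7 T cell markers checked summed to 630 to 757 FPKM, while 5 B cell markers summed to 0.374 to 0.755, 8 myeloid and dendritic markers to 0.357 to 0.924 and 3 NK cell markers to at most 0.0434 FPKM. Of the CD8 genes, Cd8a lay at 0.257 to 0.548 FPKM, while Cd8b1 had 7.06 and 7.91 in WT and 9.03 and 9.84 in cKO (limma log2 fold change 0.30, adjusted p = 0.198). The interleukin 17 genes that define Th17 cells were expressed, Il17a at 757 and 628 FPKM in WT and 521 and 479 in cKO, and Il17f at 3318 and 3107 in WT and 2442 and 2380 in cKO. The part of these differences in the values of the 10 genes was not tested. In bulk RNA, fewer cells of a type and less RNA per cell cannot be told apart. The genotypes were compared with limma on log2(FPKM + 1) over the 10562 genes whose average reached 1 FPKM, a filter that all 10 members passed. The cells expressed every one of the 10 genes, each resting on 252 to 2863 reads in a library, where the counting error alone is 6.3% to 1.87%.

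Ranked by mean FPKM over the 4 libraries, Ppp2r5d stood first with 30.8 ± 4.01 (SD, n = 4) and Ppp2r2a second with 25.8 ± 1.24. Strn4 followed with 15.9 ± 1.402, then Ppp2r5e with 12.6 ± 0.869, Ppp2r5a with 11.6 ± 0.980 and Ppp2r5c with 11.1 ± 0.0880. The lower end held Strn3 with 9.33 ± 0.545, Ppp2r2d with 6.86 ± 0.594, Strn with 6.45 ± 0.605 and Ppp2r5b with 4.85 ± 0.418. Levels spanned 6.34-fold from first to last. Ppp2r5d ranked 1997 and Ppp2r5b 7001 among the 10562 tested genes. The order of the means was the same within WT alone and within cKO alone. Of the 9 pairs of neighbours in this order, 5 had library values that did not overlap. The 4 pairs not separated were Ppp2r5d and Ppp2r2a, Ppp2r5e and Ppp2r5a, Ppp2r5a and Ppp2r5c, and Ppp2r2d and Strn. Ppp2r2a stood above Ppp2r5d in cKO replicate 1 only.

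**Figure D1:**
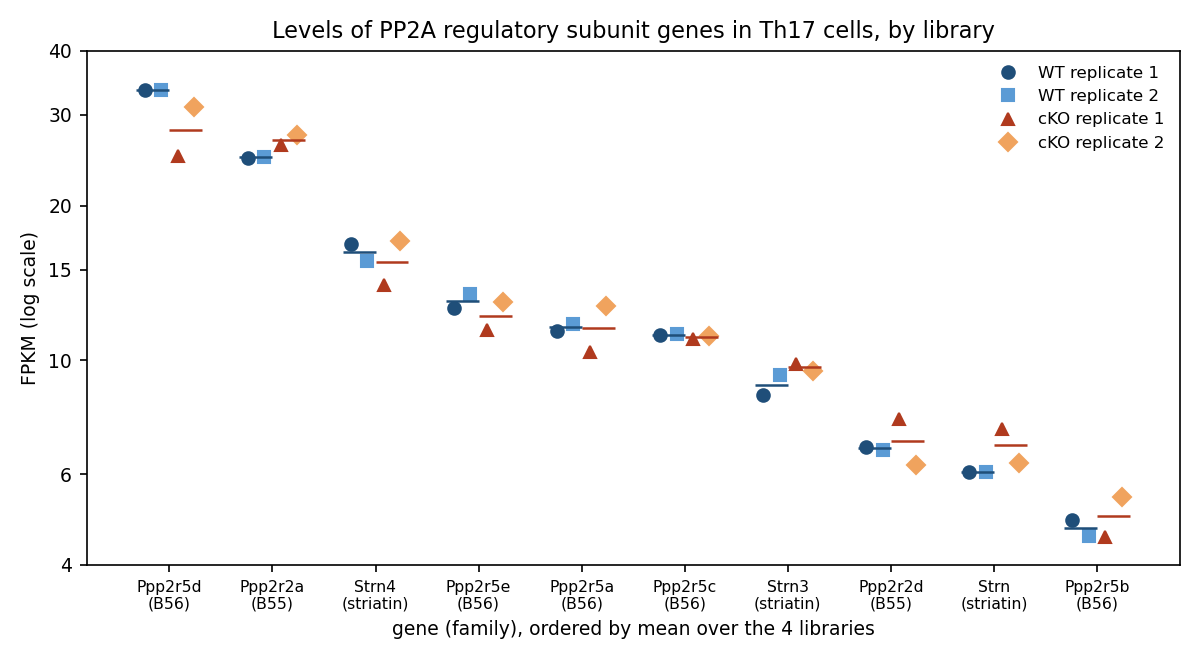
FPKM of the 10 genes (y axis, log scale) in each WT and cKO library, with short lines at the genotype means; genes are ordered by their mean over the 4 libraries (x axis). The WT symbols of Ppp2r5d coincide at 33.5 while its cKO symbols lie at 25.0 and 31.1, and for 7 of the 10 genes cKO replicate 1 lies under cKO replicate 2.

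None of the 10 genes differed between cKO and WT past the threshold (limma, adjusted p from 0.336 to 0.966), against 1.07% called among all tested genes. No member had an unadjusted p under 0.05 either, against 19.8% of all tested genes. limma voom on the recovered reads called none (adjusted p from 0.277 to 0.971, none with an unadjusted p under 0.05, background 5.18%), and neither did limma after a correction for GC content (adjusted p from 0.202 to 0.951, background 4.76%). The genotype means differed by -16.3% for Ppp2r5d to 12.6% for Strn. The 95% intervals of the fits ran from 0.667-fold at the lowest to 1.32-fold at the highest, on a scale that understates the change of genes with few FPKM. The median log2 fold change was 0.01 over the 10 genes and -0.0034 over all tested genes. WT and cKO values did not overlap for 5 of the 10 genes, a share near the 55.9% seen over all tested genes. Of these, 3 were higher in cKO (background 27.2%) and 2 lower (background 28.7%).

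Among the B56 genes, Ppp2r5d (chromosome 17, 46682991 to 46705002, minus strand, GRCm38) had the largest difference. It encodes the subunit known from human neurodevelopmental disease. Its WT libraries both stood at 33.5 FPKM, and its cKO libraries at 25.0 and 31.1. The groups did not overlap, and cKO replicate 1 was the lower of the cKO pair. WT averaged 33.5 ± 0.0171 and cKO 28.0 ± 4.27 (SD, n = 2). The fit gave a log2 fold change of -0.26 ± 0.13 (SE) with an interval from -0.58 to 0.07 that did not pass (limma, adjusted p = 0.336). Without cKO replicate 2 it was -0.41 and passed (adjusted p = 0.0190), in a fit that assumes the lone cKO library to vary like the WT pair and that called 15.3% of all tested genes lower. Without cKO replicate 1 it was -0.11 (adjusted p = 0.331), and after the GC correction -0.21 (adjusted p = 0.202). The 3 tested genes whose library profile lay nearest to that of Ppp2r5d were Zfp707, Gga3 and Rcc2, with root mean square differences of 0.0105, 0.0127 and 0.0145 on the log2(FPKM + 1) scale, each centred over the 4 libraries. These genes were picked from all 10562 tested genes on 4 values each, so their nearness is a description. Shared regulation was not tested.

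Ppp2r5e (chromosome 12, 75450881 to 75596245, minus strand) had 12.6 and 13.5 FPKM in WT and 11.4 and 13.0 in cKO. The genotypes overlapped, and the log2 fold change was -0.09 ± 0.10 (SE), with an interval from -0.35 to 0.17. Ppp2r5a, whose protein is known to promote turnover of MYC (chromosome 1, 191351975 to 191403272, minus strand), had 11.4 and 11.8 FPKM in WT and 10.4 and 12.7 in cKO. The WT values lay between the cKO values, giving a log2 fold change of -0.01 with an interval from -0.31 to 0.29. Ppp2r5c (chromosome 12, 110447120 to 110583062, plus strand), whose protein acts on p53, was the most even member, with 11.2 and 11.2 FPKM in WT and 11.02 and 11.15 in cKO. Its log2 fold change was -0.01, with an interval from -0.23 to 0.20. Ppp2r5b (chromosome 19, 6227765 to 6235872, minus strand), the least abundant, had 4.89 and 4.56 FPKM in WT and 4.54 and 5.43 in cKO. The cKO values lay on either side of the WT pair, with a log2 fold change of 0.06 and an interval from -0.22 to 0.34.

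Of the B55 genes, Ppp2r2a (chromosome 14, 67014056 to 67072444, minus strand), the main B55 subunit of mitotic exit, had 24.8 and 24.9 FPKM in WT and 26.2 and 27.4 in cKO. Both cKO values were higher, by a log2 fold change of 0.11 ± 0.09 (SE) with an interval from -0.12 to 0.33 (limma, adjusted p = 0.530), and by 0.03 after the GC correction. Ppp2r2d (chromosome 7, 138846079 to 138883057, plus strand) had 6.80 and 6.69 FPKM in WT and 7.68 and 6.26 in cKO, so that the cKO libraries fell on opposite sides of the WT pair. Its log2 fold change of 0.04 had an interval from -0.26 to 0.33. The FPKM ratio of Ppp2r2a to Ppp2r2d averaged 3.68 ± 0.0501 for WT and 3.89 ± 0.685 for cKO (SD, n = 2). In GENCODE M21, Ppp2r2d shares 195 exonic bases with Mapk1ip1 on the opposite strand, and Ppp2r5d shares 121 with Mea1, which had a mean of 69.0 FPKM. The deposited position and length of Ppp2r5d differ from M21 (2926 against 3402 exonic bases), so its shared bases may lie outside the exons counted. The strand setting of the counting is not given in the sources used here. Reads in these bases cannot be assigned with certainty.

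All 3 striatins were expressed. Strn (chromosome 17, 78649913 to 78737196, minus strand) had 6.08 and 6.06 FPKM in WT and 7.34 and 6.33 in cKO. Both cKO values were higher, with a log2 fold change of 0.15 ± 0.10 (SE) and an interval from -0.11 to 0.40 (limma, adjusted p = 0.456). Strn3 (chromosome 12, 51609632 to 51691897, minus strand) had 8.57 and 9.38 FPKM in WT and 9.85 and 9.52 in cKO. It too was higher in both cKO libraries, by 0.10 with an interval from -0.13 to 0.33, but the value was -0.01 after the GC correction. Strn4 (chromosome 7, 16815889 to 16840931, plus strand), the most abundant striatin, had 16.8 and 15.6 FPKM in WT and 14.0 and 17.1 in cKO. Its cKO values lay on either side of the WT pair, and its log2 fold change was -0.06 with an interval from -0.38 to 0.25.

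**Figure D2:**
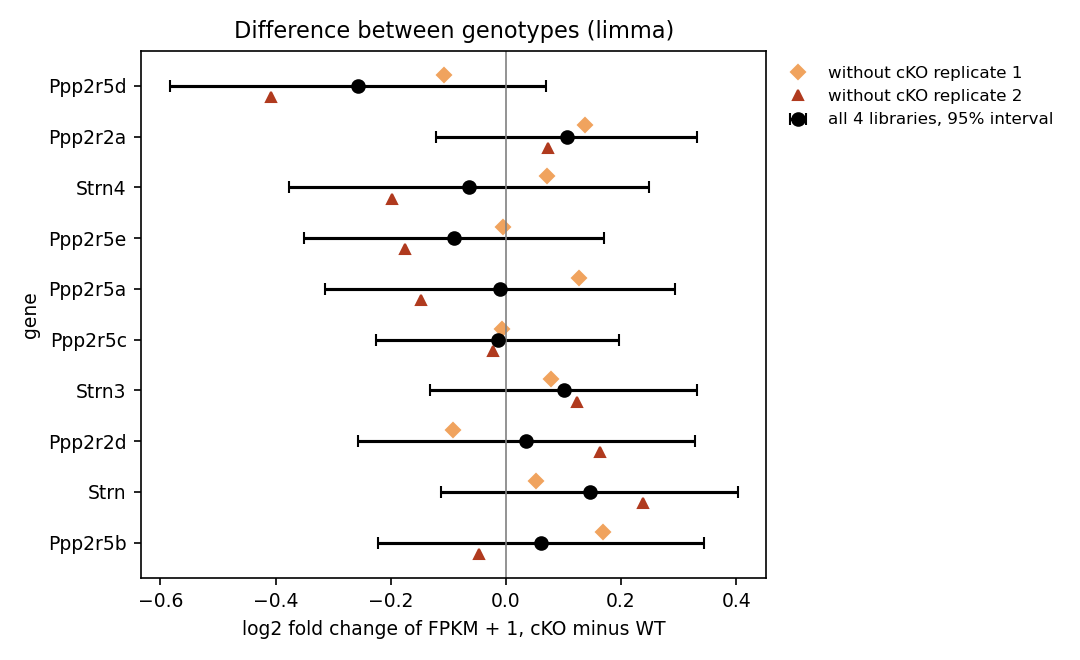
log2 fold change of FPKM + 1 in cKO against WT (x axis) for each gene (y axis), with circles and 95% intervals from limma on all 4 libraries and further symbols for the fits without cKO replicate 1 (diamonds) and without cKO replicate 2 (triangles). Every interval crosses 0, and Ppp2r5d moves from -0.11 to -0.41 between the fits that leave out a cKO library.

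The ranking depended on the gene length used. The deposited lengths equal the union of all annotated exons in GENCODE M21 for 8 of the 10 genes, so bases found only in non-coding or rare transcripts count as length. When the same reads were divided by the longest coding transcript, Ppp2r5a rose from rank 5 to rank 1, with 36.0 ± 3.05 FPKM (SD, n = 4). Its deposited length of 9607 bases is 3.11 times that of its longest coding transcript. Reads in bases outside that transcript stayed in the count, so values on this length can be too high, most where the lengths differ most. Strn4 then had 35.8 ± 3.16, Ppp2r2a 34.7 ± 1.67 and Ppp2r5d 29.6 ± 3.86. The library values of Ppp2r5a, Strn4 and Ppp2r2a overlapped, while those of Ppp2r5d (24.1 to 32.3) lay under those of Ppp2r2a (33.3 to 36.8). Ppp2r5c had 22.5 ± 0.178, Strn3 20.4 ± 1.19, Ppp2r2d 19.5 ± 1.69 and Ppp2r5e 14.0 ± 0.965. Strn with 6.62 ± 0.621 and Ppp2r5b with 5.13 ± 0.441 kept the last places, the only 2 of the 10 ranks that stayed. Fold changes between genotypes do not depend on the length, apart from the pseudocount.

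**Figure D3:**
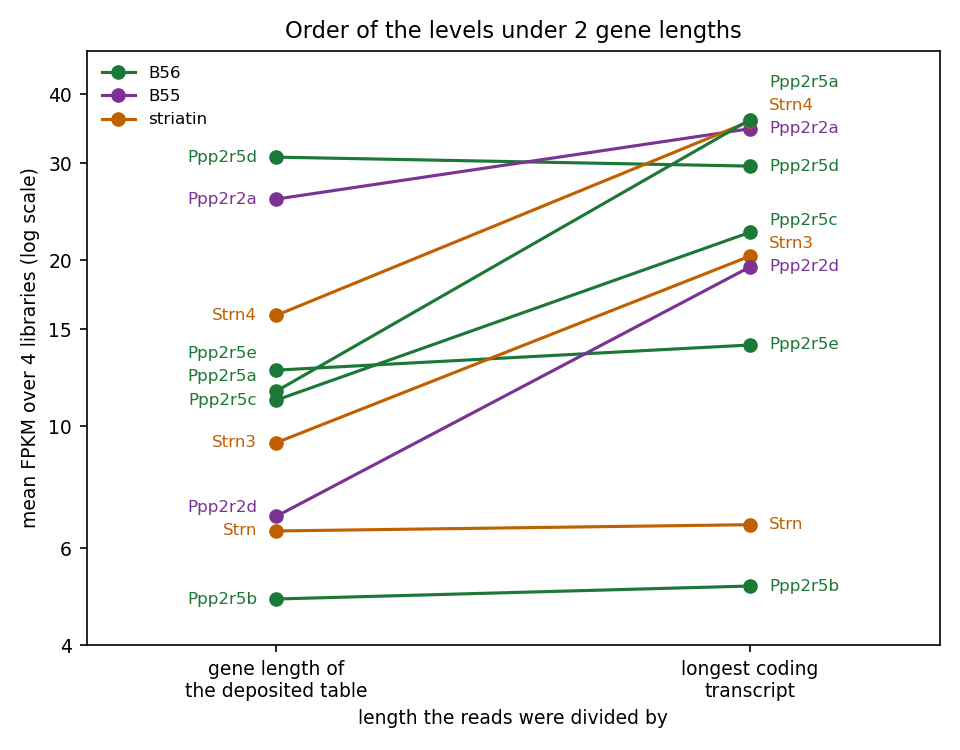
Mean FPKM over the 4 libraries (y axis, log scale) with reads divided by the deposited gene length (left) or by the longest coding transcript (right), coloured by family. Ppp2r5d leads on the left at 30.8, while Ppp2r5a, Strn4, Ppp2r2a and Ppp2r5d lie between 29.6 and 36.0 on the right, and Strn and Ppp2r5b are lowest on both sides.

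The cKO libraries differed from each other more than the WT libraries did. Among the 10 genes the median absolute difference of log2(FPKM + 1) was 0.0284 between the WT replicates and 0.201 between the cKO replicates, beside 0.0749 and 0.170 over all tested genes. cKO replicate 1 lay under cKO replicate 2 for 7 genes and above it for 3, namely Ppp2r2d, Strn and Strn3. The 4 members with the highest transcript GC content, Ppp2r5b (59.0%), Ppp2r5d (54.9%), Strn4 (51.8%) and Ppp2r5a (48.6%), were lower in cKO replicate 1 by 0.22, 0.30, 0.27 and 0.27. Across the 10 genes, Spearman's rho between GC content and this difference was -0.746, and across the 10550 tested genes with a GC value it was -0.529. These are descriptions, since the genes share the same libraries. Between the WT replicates rho was 0.491 over the 10 genes and 0.121 over all. For the genotype difference, cKO minus WT, rho with GC content was -0.612 over the 10 genes and -0.245 over all, again as a description. Beyond the corrected fit, the part of GC content in the value of any 1 gene was not tested.

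**Figure D4:**
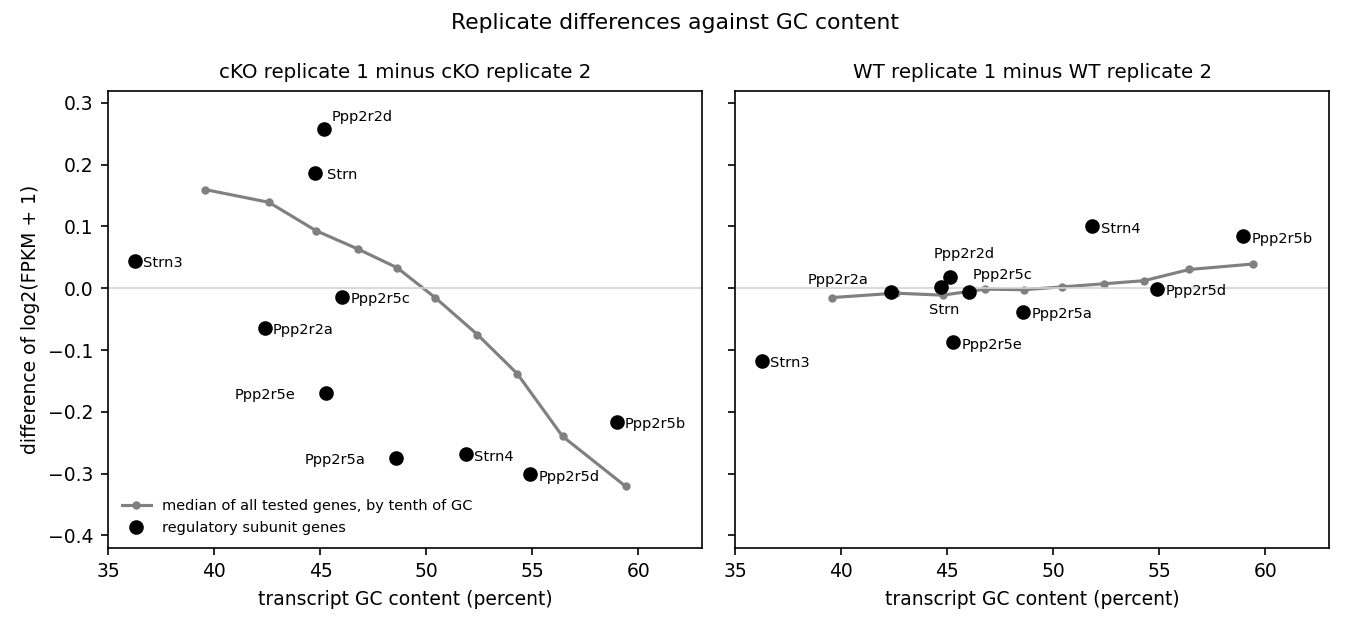
Difference of log2(FPKM + 1) between replicates (y axis) against transcript GC content in percent (x axis) for cKO (left) and WT (right). Black points are the 10 genes and the grey line joins medians of all tested genes in 10 bins of GC content; on the left the 4 GC-richest members lie between -0.22 and -0.30 and Ppp2r2d is highest at 0.26.

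Summed by family, B56 genes gave 73.6 and 74.5 FPKM in WT and 62.4 and 73.4 in cKO. B55 genes gave 31.6 and 31.6 FPKM in WT and 33.9 and 33.7 in cKO, and striatins 31.5 and 31.1 in WT and 31.2 and 32.9 in cKO. The B56 share of the 10 genes averaged 54.1% ± 0.329 for WT and 50.7% ± 2.45 for cKO (SD, n = 2), the B55 share 23.1% ± 0.0620 and 25.3% ± 1.77, and the striatin share 22.8% ± 0.267 and 24.001% ± 0.676. The shares did not overlap between genotypes, but an exact two-sided permutation test of 2 libraries against 2 cannot give a p under 0.33, the value found for each share. With lengths of the longest coding transcripts, the B56 share over the 4 libraries was 47.8%, the B55 share 24.2% and the striatin share 28.0%. Within B56, Ppp2r5d gave 45.2% ± 0.377 of the family in WT and 41.2% ± 1.58 in cKO. With the deposited lengths, all 10 genes together gave 137 ± 0.376 FPKM in WT and 134 ± 8.86 in cKO. The scaffold genes Ppp2r1a and Ppp2r1b together gave 129 ± 1.29 and 126 ± 14.7. These sums depend on the gene lengths used and leave out other expressed B subunit genes, so they do not compare amounts of subunit.

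**Figure D5:**
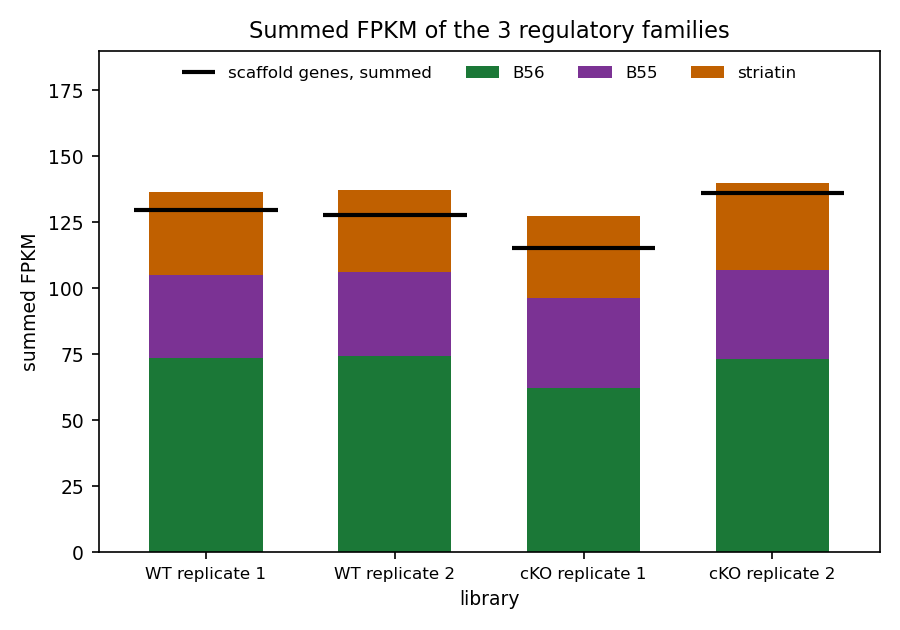
Summed FPKM (y axis, from 0) of the B56, B55 and striatin genes in each library (x axis), with a black line at the sum of the scaffold genes. B56 genes make up the largest part of each bar, 62.4 to 74.5 FPKM, and the bar of cKO replicate 1 is the shortest at 127 FPKM.

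Of the other B subunit genes, 3 passed the filter. Ppp2r3d averaged 7.16 FPKM over the 4 libraries, above the means of Ppp2r2d, Strn and Ppp2r5b, Ppp2r3c averaged 4.47 and Ppp2r3a 1.86. The B″ genes Ppp2r3d, Ppp2r3c and Ppp2r3a had 7.57 and 6.25, 4.03 and 4.44, and 1.66 and 1.73 FPKM in WT, and 5.64 and 9.18, 5.31 and 4.10, and 2.18 and 1.88 in cKO, in that order. None of the 3 passed the test (limma, adjusted p from 0.447 to 0.894, background 1.07%). None had an unadjusted p under 0.05 (background 19.8%), and voom called none (background 5.18%). Ppp2r2c had 1 read over the 4 libraries. Ppp2r2b had none, and 3 reads would have given 0.0371 to 0.0394 FPKM. In the core enzyme, Ppp2ca had 42.2 and 50.1 FPKM in WT and 41.8 and 34.5 in cKO, and Ppp2cb, Ppp2r1a and Ppp2r1b overlapped between genotypes (limma, adjusted p from 0.360 to 0.910 over the 4 genes). Ppp2ca was lower in each cKO library than in either WT library. Since the targeted gene is not named, these totals do not check the labels.

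Genes of the partners of each family were compared next, in lists chosen with earlier results of these data known. The shares called are therefore descriptions and do not test a list against the other genes. Of 15 STRIPAK partner genes 11 were tested. None passed by limma (background 1.07%), none had an unadjusted p under 0.05 (background 19.8%), and voom called none (background 5.18%). Their median log2 fold change was 0.03. The most changed was Pdcd10, which links kinases to the assembly, with 21.3 and 22.1 FPKM in WT and 30.9 and 24.4 in cKO, a limma log2 fold change of 0.33 (adjusted p = 0.267). Without cKO replicate 1 the Pdcd10 value was 0.16, and without cKO replicate 2 it was 0.49. Each of these fits leaves a lone cKO library, and whether Pdcd10 passed depended on the library omitted.

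Of 15 tested B55 pathway genes none passed by limma (background 1.07%), 7 had an unadjusted p under 0.05 (background 19.8%), and voom called 4 lower (26.7%, background 5.18% in either direction). The list median was -0.13. The largest difference was in Cdc25b, a phosphatase that activates cyclin-dependent kinases, with 21.5 and 22.4 FPKM in WT and 9.88 and 12.9 in cKO (log2 fold change -0.90 ± 0.14, limma adjusted p = 0.0607, voom adjusted p = 0.0170). The others called by voom were the mitotic cyclin gene Ccnb1 (-0.68 in limma, adjusted p = 0.0504), its kinase gene Cdk1 (-0.55, adjusted p = 0.0607) and the pocket protein gene Rbl1 (-0.51, adjusted p = 0.0721). These 4 genes passed limma when either cKO library was left out (adjusted p from 0.0116 to 0.0499; 2.48% of all tested genes were called without cKO replicate 1), and not when either WT library was (adjusted p from 0.173 to 0.537). The B55 inhibitor gene Ensa stood at 14.0 and 14.4 FPKM in WT and 17.2 and 15.6 in cKO, and the inhibitor gene Arpp19 at 17.7 and 18.0 in WT and 26.7 and 18.1 in cKO. Neither passed (limma, adjusted p = 0.337 and 0.429). For Arpp19 only cKO replicate 1 stood apart, and without cKO replicate 2 its log2 fold change was 0.56 (limma, adjusted p = 0.0143). That fit, with a lone cKO library, called 8 of the 15 genes, beside 28.4% of all tested genes. Without cKO replicate 1 the Arpp19 value was 0.021 (limma, adjusted p = 0.863).

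Of 16 tested B56 partner genes none passed by limma (background 1.07%), 8 had an unadjusted p under 0.05 (background 19.8%), and voom called 1 higher and 3 lower (25.0%, background 5.18%). The list median was -0.18. Ccng1, which encodes the B56-binding cyclin G1 and is a p53 target, had 24.1 and 23.2 FPKM in WT and 49.4 and 37.4 in cKO (log2 fold change 0.83 ± 0.15, limma adjusted p = 0.0734, voom adjusted p = 0.0225). The lower genes were spindle checkpoint and cohesion genes. Bub1b, which encodes BubR1, had 26.8 and 26.3 FPKM in WT and 16.8 and 17.2 in cKO (-0.62 ± 0.09, limma adjusted p = 0.0541, voom adjusted p = 0.0170). Bub1 and the shugoshin gene Sgo1 had log2 fold changes of -0.61 and -0.56 (limma adjusted p = 0.0778 and 0.0696, voom adjusted p = 0.0342 and 0.0334). With a library left out, the log2 fold change ranged from 0.64 to 1.03 for Ccng1 and from -0.63 to -0.60 for Bub1b. The range was -0.63 to -0.48 for Sgo1 and -0.71 to -0.51 for Bub1. Each such fit leaves a lone library in a genotype, and whether these genes passed depended on the library omitted. The partner lists also hold general cell cycle genes, and the part of proliferation in these values was not tested.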

How the data were processed

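For 2 PP2A WT and 2 PP2A cKO libraries the authors deposited FPKM per gene, with gene lengths. Per the submitters' processing notes, featureCounts 1.5.0-p3 was used with GRCm38 (mm10). Aligner, annotation release and strand setting: not given in the sources used here. Reads were recovered from FPKM times gene length, which came out whole (within 0.01 read) for 100% of values above 0.

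limma 3.58.1 (R 4.3.3) compared cKO minus WT on log2(FPKM + 1), pseudocount 1, over 10562 genes averaging 1 FPKM or more, with a variance trend, two-sided, Benjamini-Hochberg adjusted at 0.05. Intervals are 95%. Alternatives were other pseudocounts, filters, scalings and variance models, a replicate block, each library left out, voom with TMM scaling on recovered reads, and a loess GC correction (span 0.3). The test was checked on simulated reads. Members and lists were chosen with earlier results of these data known. Named genes are the members, core and other B genes, and the most changed gene of each partner list. Ccnb1, Cdk1, Rbl1, Bub1b, Bub1, Sgo1, Ensa and Arpp19 were chosen after their values were seen.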

Additional observations from a re-analysis of the deposited data

How the results depend on the processing

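The 10 members stayed uncalled under each alternative run except without cKO replicate 2, which called Ppp2r5d (0 to 1 members over the omissions of a library). Ppp2r5b was not tested under the filter of 5 FPKM, which it does not reach. Genes called over the whole table, 113 as reported, were 0 without a filter, 26 with TPM, 227 with the replicate block, 547 with voom, 502 with the GC correction, and 55 (without WT replicate 2) to 3004 (without cKO replicate 2) when a library was left out. Same-numbered libraries deviated with a correlation of -0.093 and crossed pairs with 0.093, the same value with its sign turned. Whether same-numbered libraries were handled together cannot be told from this value. The replicate block called no member. B55 pathway calls, 0 as reported, were 1 with a filter of 5 FPKM, 1 with the replicate block, 4 with voom, 5 with the GC correction, and 0 to 8 over the omissions. B56 partner calls, also 0, were 1 with a filter of 5 FPKM, 4 with voom, 4 with the GC correction, and 0 to 9 over the omissions, and STRIPAK calls were 0 to 2. Some log2 fold changes near 0 turned sign, and the cause was not tested. With TPM the log2 fold changes shifted by a median of -0.0924 from the reported fit. The TPM values were -0.051 for Ppp2r2d, -0.018 for Ppp2r5b, -0.027 for Ppp2cb and -0.025 for Ppp2r3d. After the GC correction they were -0.014 for Ppp2r2d, -0.010 for Strn3 and 0.010 for Ppp2r1a. With quantile normalization they were 0.0093 for Ppp2r5a and 0.0080 for Ppp2r5c. Over the omissions of a library, Ppp2r2d ranged from -0.09 to 0.16, Ppp2r5a from -0.15 to 0.13, Ppp2r5b from -0.046 to 0.17, Strn4 from -0.20 to 0.071, Ppp2cb from -0.017 to 0.15, Ppp2r1a from -0.21 to 0.14, Ppp2r1b from -0.16 to 0.0022, Ppp2r3c from -0.036 to 0.27 and Ppp2r3d from -0.25 to 0.37. With coding transcript lengths, 2 of 10 ranks stayed, the B56 share was 47.8% and the striatin share 28.0%. Over the omissions the B55 share ranged from 23.4% to 24.6%, the B56 share from 51.7% to 53.5% and the striatin share from 23.1% to 23.7%. The planned edgeR test was not run, since the deposited unit is FPKM. With 2 libraries a genotype, and 252 reads for the least covered member, small changes were not detectable.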
